A study of Homo sapiens with 24 samples.

Results

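The nuclear-encoded subunits of the 5 respiratory chain complexes were followed in cultured human hepatoma cells given silymarin or its solvent. The 80 members were all protein-coding genes with a probe set of their own in the platform annotation whose symbols mark them as subunits: NDUFA, NDUFB, NDUFC, NDUFS and NDUFV genes for complex I, SDHA to SDHD for complex II, UQCR genes and CYC1 for complex III, COX4 to COX8 genes for complex IV, and ATP5 genes for complex V. Assembly factors and pseudogenes were left out, and where a gene had several probe sets the 1 with the highest mean was taken. The members were chosen by symbol, not by their values, and made up 80 of the 18274 genes measured by a single-symbol probe set. Complex I held 34 of them, complex II 3, complex III 8, complex IV 17 and complex V 18. The genes ATP5F1E, NDUFC2, NDUFS5, SDHB and UQCRFS1, with the readthrough and paralogous loci ATP5MF-PTCD1, NDUFC2-KCTD14 and UQCRHL, had no probe set with a single symbol and were not analysed here. The label NDUFV1-DT belongs to a noncoding RNA, and ATP5F1EP2 and UQCRBP1 to pseudogenes, and all 3 were left out.

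Huh7.5.1 is a line derived from human hepatoma cells and is used to grow hepatitis C virus. The sample titles marked every array used here as having no virus. Cells received silymarin, a mixture of flavonolignans extracted from milk thistle, or DMSO, the solvent, at a dose that the labels do not give. The groups were silymarin for 4 h (4 arrays), 8 h (3 arrays) and 24 h (3 arrays), and DMSO for 4 h (4 arrays), 8 h (5 arrays) and 24 h (5 arrays). The labels do not say if arrays of the same group are separate cultures. The p-values then rest on array-to-array spread, part of which may be technical. A single tumour-derived line stands for hepatocytes here, which limits it as a model of liver.

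The respiratory chain lies in the inner mitochondrial membrane. Complex I takes electrons from NADH and complex II from succinate, ubiquinone carries them to complex III, and cytochrome c carries them to complex IV, which reduces oxygen. Complexes I, III and IV pump protons, and complex V, the ATP synthase, uses the gradient to make ATP. Complex II is encoded in the nucleus alone, whereas the other 4 complexes combine nuclear subunits with a few encoded by mitochondrial DNA. Liver cells depend on the chain for the ATP that gluconeogenesis and urea synthesis consume. Many of the nuclear genes share promoter elements for the factors NRF1, GABP (an ETS-family factor) and YY1, and the complexes are built from subunits in fixed ratios.

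Values were log2 expression values from Affymetrix Human Gene 1.0 ST arrays, which carry probes along the whole transcript. A difference of 1 on this scale is a doubling, and levels of different probe sets cannot be compared with each other because probes bind with different strength. The median over all probe sets lay between 7.04 and 7.18 in the 24 arrays. Of 10 hepatocyte or hepatoma marker genes, 9 were measured, and their means lay between 11.44 and 13.34. Markers of other cells were mostly dim, which here means a mean under 6.81, the bound of the lowest tertile of gene means. Dim were 4 of 5 endothelial, 4 of 6 leukocyte, 2 of 5 fibroblast, 5 of 5 heart and skeletal muscle and 4 of 4 testis markers. The stress-induced gene DDIT4 was at 9.67 or above in 10 arrays and at 8.35 or below in the other 14, and both kinds occurred in all 6 groups. None of the 13 mitochondrially encoded subunits had a probe set with that symbol, so those subunits were not analysed here.

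Promoters are shown because the members are known for shared regulatory elements and because most of them lay on the same side of 0 in the largest comparison below. Whether the motifs have any part in that comparison was not tested. RefSeq (GRCh38.p14) gave a promoter of 250 bases before to 50 after the gene start for 67 of the 80 members. Consensus motifs of NRF1, of ETS factors (CCGGAAG) and of YY1 were each searched on both strands and counted separately, so that matches of different motifs may share bases. The NRF1 motif occurred in 16 of the 67 promoters (23.9%), against 6.28% of all 27305 promoters of the same length. Those 27305 were taken without regard to gene type or expression, whereas the members are all protein coding. Shares over all promoters are therefore from an unlike set. The ETS motif occurred in 19 (28.4%), against 10.7%. The YY1 motif occurred in 3 (4.48%), those of NDUFA9, NDUFS4 and UQCRC1, against 0.916%. At least 1 of the 3 motifs was found in 33 of 67 members' promoters (49.3%), against 16.3% of all promoters. By complex these were 12 of 32 promoters of complex I, 2 of 2 of complex II, 5 of 6 of complex III, 6 of 14 of complex IV and 8 of 13 of complex V. A match is a run of letters and does not show that a factor binds there, and its absence says nothing about the factor.

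The 6 promoters printed here belong to members to which the results below return, with matches to any of the 3 motifs in capitals and the sequence given 5′ to 3′ along the gene's strand. NDUFB6 and COX7B were the most variable members of complexes I and IV and hold no match in this window. SDHA holds 4 NRF1 matches, ATP5ME holds 2 NRF1 matches and 1 ETS match, and UQCRQ and COX6A1 hold 1 ETS match each. In GRCh38.p14 the windows are chr9:32573110-32573409 on the minus strand for NDUFB6, chr5:218070-218369 on the plus strand for SDHA, chr5:132866392-132866691 on the plus strand for UQCRQ, chrX:77899218-77899517 on the plus strand for COX7B, chr12:120437863-120438162 on the plus strand for COX6A1 and chr4:674227-674526 on the minus strand for ATP5ME.
NDUFB6: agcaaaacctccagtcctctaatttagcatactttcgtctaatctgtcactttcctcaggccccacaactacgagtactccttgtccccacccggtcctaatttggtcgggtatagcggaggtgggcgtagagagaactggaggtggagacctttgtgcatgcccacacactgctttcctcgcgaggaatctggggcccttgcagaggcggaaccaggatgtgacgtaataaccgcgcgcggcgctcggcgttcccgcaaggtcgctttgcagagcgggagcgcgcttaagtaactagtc
SDHA: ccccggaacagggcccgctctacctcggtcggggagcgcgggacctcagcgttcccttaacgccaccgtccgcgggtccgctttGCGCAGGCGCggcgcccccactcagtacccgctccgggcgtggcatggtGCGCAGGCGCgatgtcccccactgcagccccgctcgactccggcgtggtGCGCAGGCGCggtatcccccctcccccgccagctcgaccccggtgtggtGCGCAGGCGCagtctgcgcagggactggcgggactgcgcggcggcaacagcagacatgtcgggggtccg
UQCRQ: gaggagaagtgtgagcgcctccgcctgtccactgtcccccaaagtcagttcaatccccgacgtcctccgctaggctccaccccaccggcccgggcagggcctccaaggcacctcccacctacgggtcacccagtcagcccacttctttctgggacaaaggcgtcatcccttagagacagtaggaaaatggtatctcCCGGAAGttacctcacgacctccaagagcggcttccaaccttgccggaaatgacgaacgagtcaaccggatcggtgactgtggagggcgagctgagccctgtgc
COX7B: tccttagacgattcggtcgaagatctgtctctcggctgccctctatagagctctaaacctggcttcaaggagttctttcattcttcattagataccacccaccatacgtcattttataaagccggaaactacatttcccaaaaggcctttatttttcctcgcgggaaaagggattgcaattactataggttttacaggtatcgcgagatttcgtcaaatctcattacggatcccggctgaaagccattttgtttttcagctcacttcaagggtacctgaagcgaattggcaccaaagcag
COX6A1: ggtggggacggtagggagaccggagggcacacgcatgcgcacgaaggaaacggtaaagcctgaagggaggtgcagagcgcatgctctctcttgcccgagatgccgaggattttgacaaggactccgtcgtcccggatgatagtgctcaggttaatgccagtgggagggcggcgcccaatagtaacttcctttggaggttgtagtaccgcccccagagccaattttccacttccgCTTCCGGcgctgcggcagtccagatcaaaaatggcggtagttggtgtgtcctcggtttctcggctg
ATP5ME: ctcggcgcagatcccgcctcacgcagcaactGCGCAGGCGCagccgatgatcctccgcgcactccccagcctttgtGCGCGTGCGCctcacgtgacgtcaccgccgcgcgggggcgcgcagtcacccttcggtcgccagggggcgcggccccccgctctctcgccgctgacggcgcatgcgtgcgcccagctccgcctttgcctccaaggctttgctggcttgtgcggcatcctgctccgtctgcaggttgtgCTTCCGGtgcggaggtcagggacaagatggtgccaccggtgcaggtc

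The members varied little over the 24 arrays. Their median SD was 0.088 on the log2 scale, against 0.127 for all genes, and 65 of 80 members lay below the median SD of all genes. Among genes in the highest tertile of mean value, which held 60 members, the median SD was 0.085 for the members and 0.109 for all genes. The SD was above 0.1 in 31 members and above 0.2 in 1. By complex the median SD was 0.092 for complex I, 0.055 for complex II, 0.091 for complex III, 0.103 for complex IV and 0.080 for complex V. Complex IV includes 6 tissue-restricted isoforms, most of them dim and described below, with SDs between 0.103 and 0.178. The median SD of its other 11 members was 0.080, that of COX6B1. The value of complex II depends on the probe sets, since with the other sets of SDHC and SDHD, described below, the SDs were 0.137 for SDHC, 0.109 for SDHD and 0.055 for SDHA, so that its median was 0.109. These are descriptions without a test.

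COX7B, a small subunit of complex IV encoded on the X chromosome, was the most variable member, with an SD of 0.237 and values between 8.87 and 9.77. NDUFB6, a membrane-arm subunit of complex I, had an SD of 0.183, and NDUFB3, of the same arm, 0.166. In complex V the least steady members were ATP5MGL, a gene resembling the g subunit, at 0.165, and ATP5IF1, the inhibitor that blocks ATP hydrolysis by the synthase, at 0.143. UQCRB and UQCRH, small subunits of complex III, each had an SD of 0.136. SDHD led complex II with 0.123. The dim isoforms COX4I2 and COX8C, with SDs of 0.178 and 0.162, were among the 6 dim members.

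The member with the smallest SD in each complex is given here, which leaves out COX5A of complex IV at 0.041. COX6A1, the widely expressed form of a complex IV subunit, had an SD of 0.034 and stayed between 12.61 and 12.75 in all 24 arrays. SDHC, a membrane anchor of complex II, had an SD of 0.040, and UQCRC2, a core protein of complex III, 0.049. ATP5MC2, a gene for the c subunit of the synthase ring, had 0.052, and NDUFV1, the flavoprotein that takes up NADH in complex I, 0.055.

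**Figure D1:**
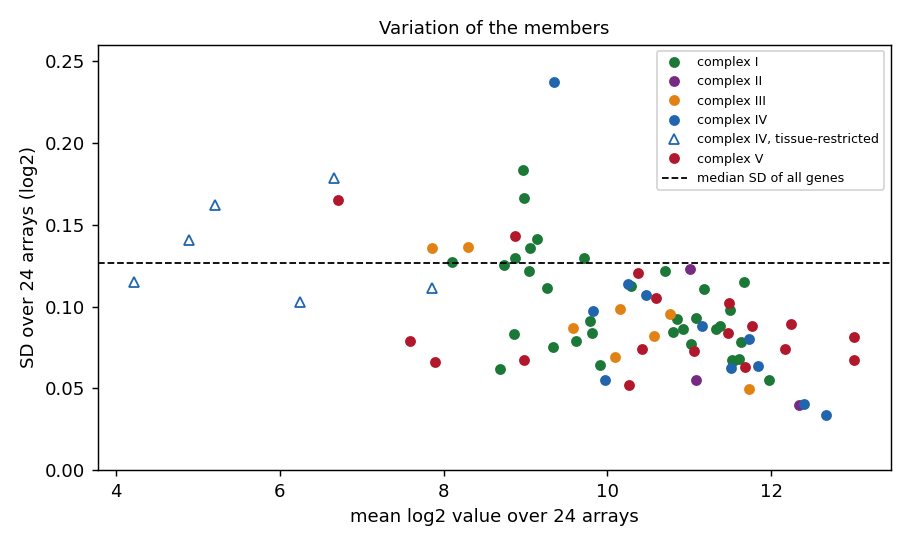
SD over the 24 arrays (y axis, log2) against mean log2 value (x axis) for each of the 80 members, coloured by complex, with open triangles for tissue-restricted complex IV isoforms and a dashed line at the median SD of all genes, 0.127. COX7B stands highest at 0.237, and 65 of 80 points lie below the line.

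To compare the complexes array by array, each member was set to 0 at its own mean over the 24 arrays, and the median over a complex's members was taken in each array. These medians moved within narrow bounds. Over the 24 arrays they spanned 0.19 for complex I, 0.15 for complex II, 0.17 for complex III, 0.082 for complex IV and 0.20 for complex V, while the median of all genes spanned 0.076. The members' own lows and highs were spread unevenly over the arrays. DMSO at 8 h held the lowest value of 43 of the 80 members, of which 21 were in replicate 4, and silymarin at 8 h held the lowest of 12, of which 10 were in replicate 3. DMSO at 24 h held the highest value of 29 members, 12 of them in replicate 4 and 11 in replicate 2, and silymarin at 4 h the highest of 18. In DMSO replicate 4 at 24 h, 72 of 80 members were above their own mean. The same counts were not made over all genes, and the groups differ in their number of arrays. These counts therefore describe the members alone.

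**Figure D2:**
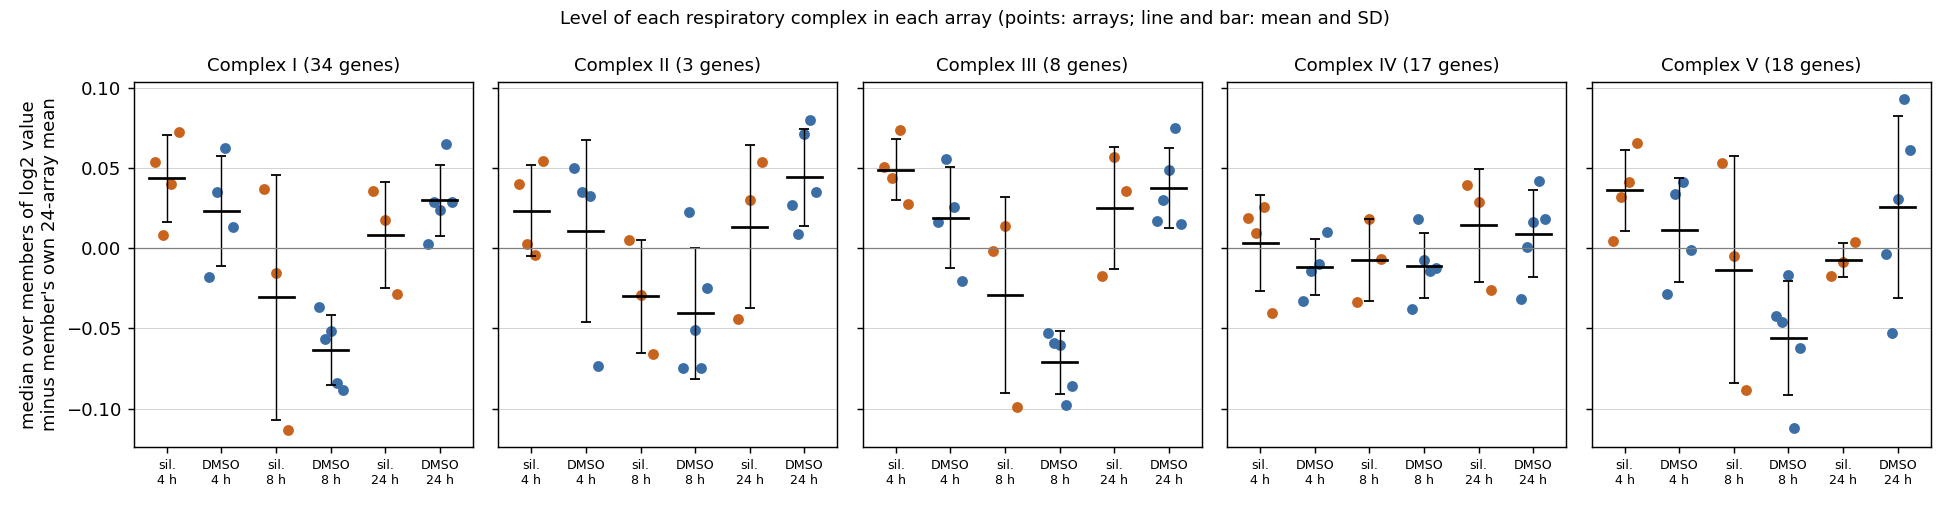
Median over the members of each complex of the log2 value minus the member's own 24-array mean (y axis), by treatment and time (x axis), with a point for each array and a line and bar for the group's mean and SD. DMSO at 8 h averaged -0.063 for complex I, -0.071 for complex III and -0.056 for complex V, against 0.023, 0.019 and 0.011 for the same complexes in DMSO at 4 h.

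**Figure D3:**
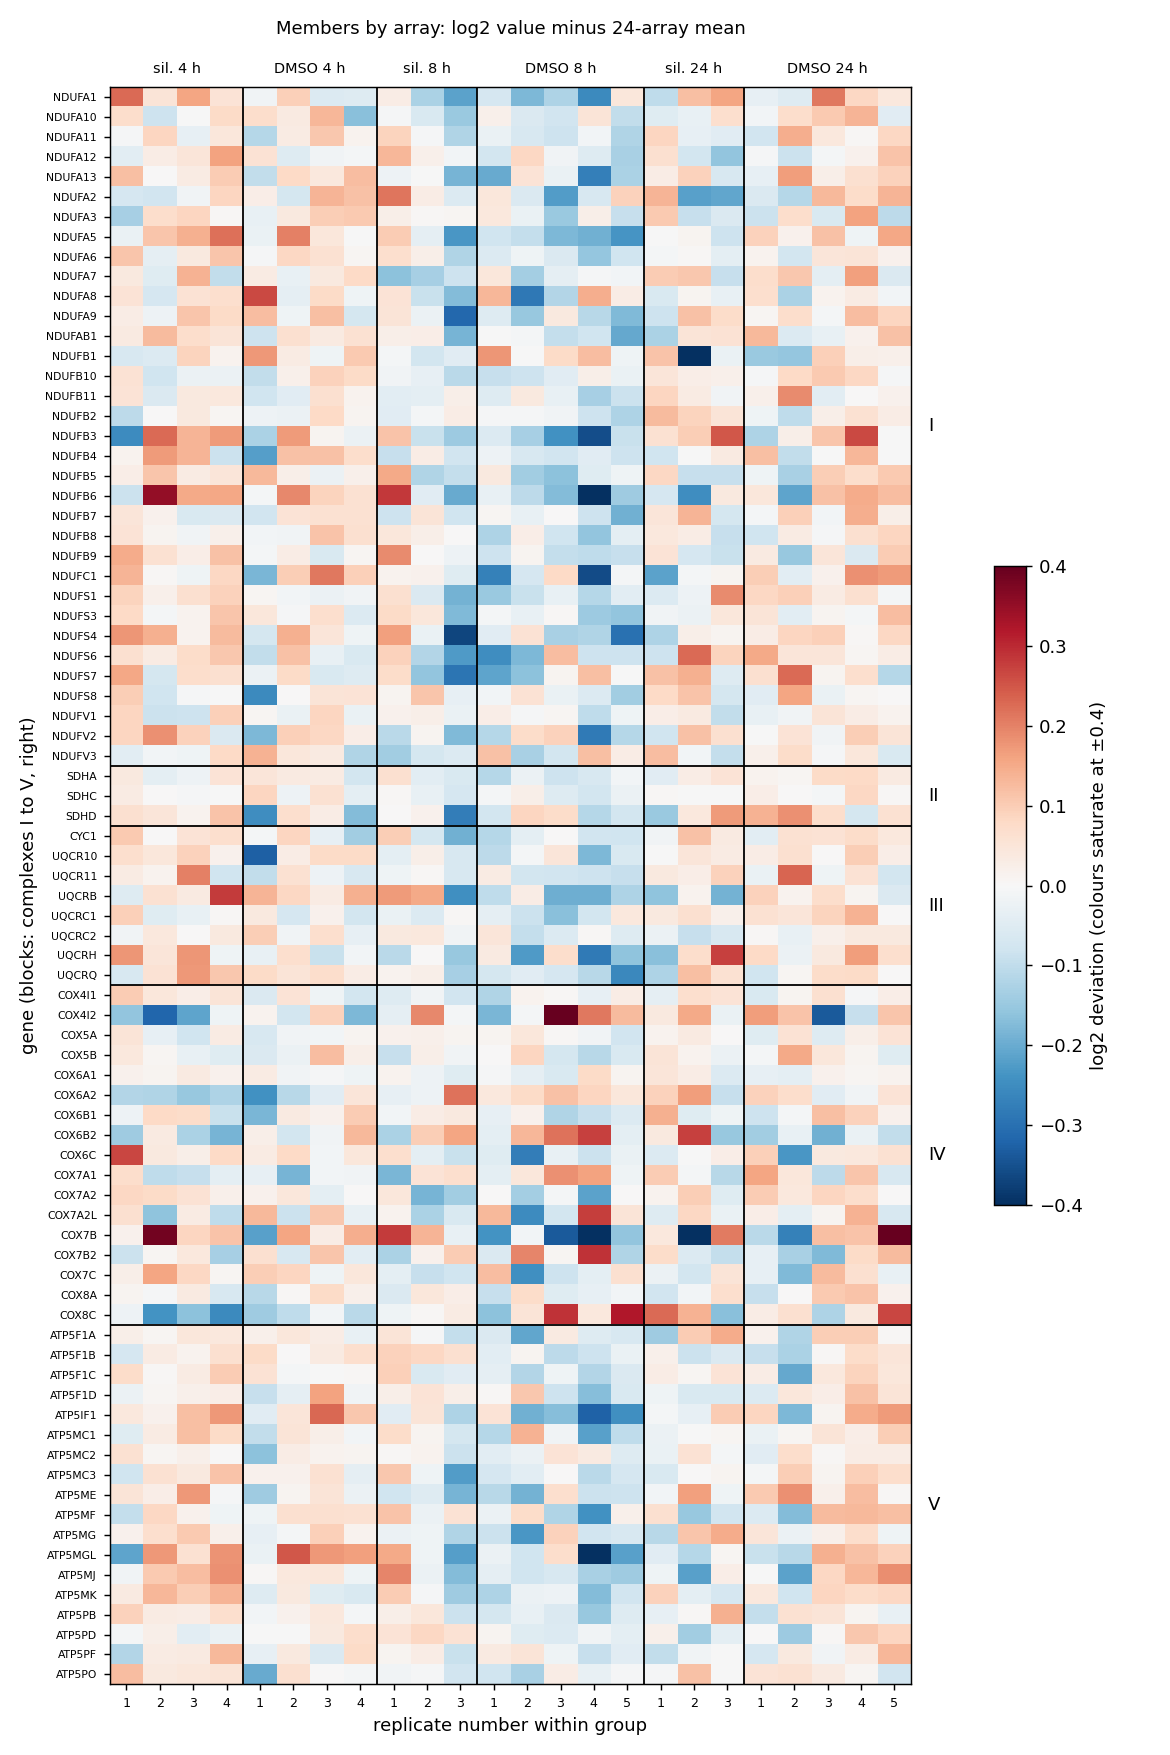
Log2 value minus the 24-array mean for every member (rows, in blocks for complexes I to V) in every array (columns, by group and replicate), with red above and blue below the mean. The columns of silymarin replicate 3 and DMSO replicates 4 and 5 at 8 h are mostly blue, with 17, 17 and 14 of the 80 members above their own mean.

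No member passed the test in any comparison. In the limma fit over all 18274 genes with Benjamini-Hochberg adjustment, 0 members had an adjusted p under 0.05 for silymarin against DMSO at 4, 8 or 24 h, for DMSO at 8 h or 24 h against 4 h, for the change of the silymarin difference between times, or in the F-test over the 6 groups. No other gene passed either, so the share of all genes called was 0% in each. An unadjusted p under 0.05 was found for 1, 2 and 0 of 80 members for silymarin at 4, 8 and 24 h, where 2.48%, 3.93% and 3.03% of all genes had one. For DMSO at 8 h and 24 h there were 12 and 0, where 6.5% and 1.7% of all genes had one, and in the F-test 5, where 7.2% did. Apart from DMSO at 8 h, these counts are near or below the share among all genes. All differences below are therefore sizes with their errors, and none is a called change.

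The largest common displacement was between the solvent groups, DMSO at 8 h against DMSO at 4 h, which compares times of culture without silymarin. Of the 80 members, 69 were lower at 8 h and 11 higher, with a median difference of -0.069 on the log2 scale, against 0.0094 for all genes. Complex I was below 0 in 33 of 34 members with a median of -0.080, complex III in 8 of 8 with -0.051, complex V in 17 of 18 with -0.077 and complex II in 2 of 3 with -0.049. Complex IV split, with 9 of 17 below 0 and a median of -0.0025. At an unadjusted p under 0.05, limma gave 10 members lower and 2 higher, which is 12 of 80, where 6.5% of all genes reached that level, 2.11% of them lower and 4.39% higher. The smallest adjusted p among members was 0.739. The groups did not overlap, with all 5 arrays at 8 h below all 4 at 4 h, for 10 members, against 0.826% of all genes in that direction and 2.24% in either. The 10 were ATP5F1C, ATP5MJ, ATP5PB, COX6C, NDUFA5, NDUFA6, NDUFB6, NDUFS1, UQCRB and UQCRQ, named after their values were seen.

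The size of the displacement set against the replicates differed by complex. For complex I the array medians were -0.04, -0.06, -0.05, -0.08 and -0.09 in DMSO at 8 h, against -0.02, 0.04, 0.06 and 0.01 in DMSO at 4 h, with no overlap. Complex III had -0.05, -0.06, -0.06, -0.10 and -0.09 in DMSO at 8 h, against 0.02, 0.06, 0.03 and -0.02 in DMSO at 4 h, also apart. Complexes II, IV and V overlapped between the 2 times. The spread between replicates, taken as the root mean square of both groups' SDs, was 0.029 for complex I, 0.049 for complex II, 0.026 for complex III, 0.019 for complex IV and 0.034 for complex V, so the median difference exceeded that spread in complexes I, III and V. In complex III this was lost with quantile normalization repeated, at -0.019, and with cyclic loess, at -0.016.

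The displacement also varied with the mean value of the probe set. Over all genes, the median difference was 0.060 in the lowest tertile of mean value, 0.014 in the middle and -0.033 in the highest, where 68.6% of genes were below 0. Of the 60 members in the highest tertile, 55 were below 0 (91.7%) with a median of -0.071, and of the 14 in the middle, 13 were. Within the highest tertile the counts below 0 were 26 of 27 for complex I, 6 of 6 for complex III, 9 of 11 for complex IV and 12 of 13 for complex V. The part of this gradient in the members' result was not tested. The scaling of the arrays mattered too, as 73 of 80 members were below 0 with arrays re-centred, 59 with quantile normalization repeated and 61 with cyclic loess, and complex IV turned to medians of 0.026 and 0.030 under the last 2. DDIT4 was at 9.67, 7.86, 7.50, 10.28 and 10.11 in the DMSO arrays at 8 h, against 9.69, 7.72, 7.64 and 10.01 at 4 h. Fits with DDIT4 as a covariate, and without arrays with DDIT4 of at least 9, were among 11 alternatives for the complex I median. Over these alternatives that median lay between -0.115 and -0.049. The part of DDIT4 in the difference was not tested beyond such fits.

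**Figure D4:**
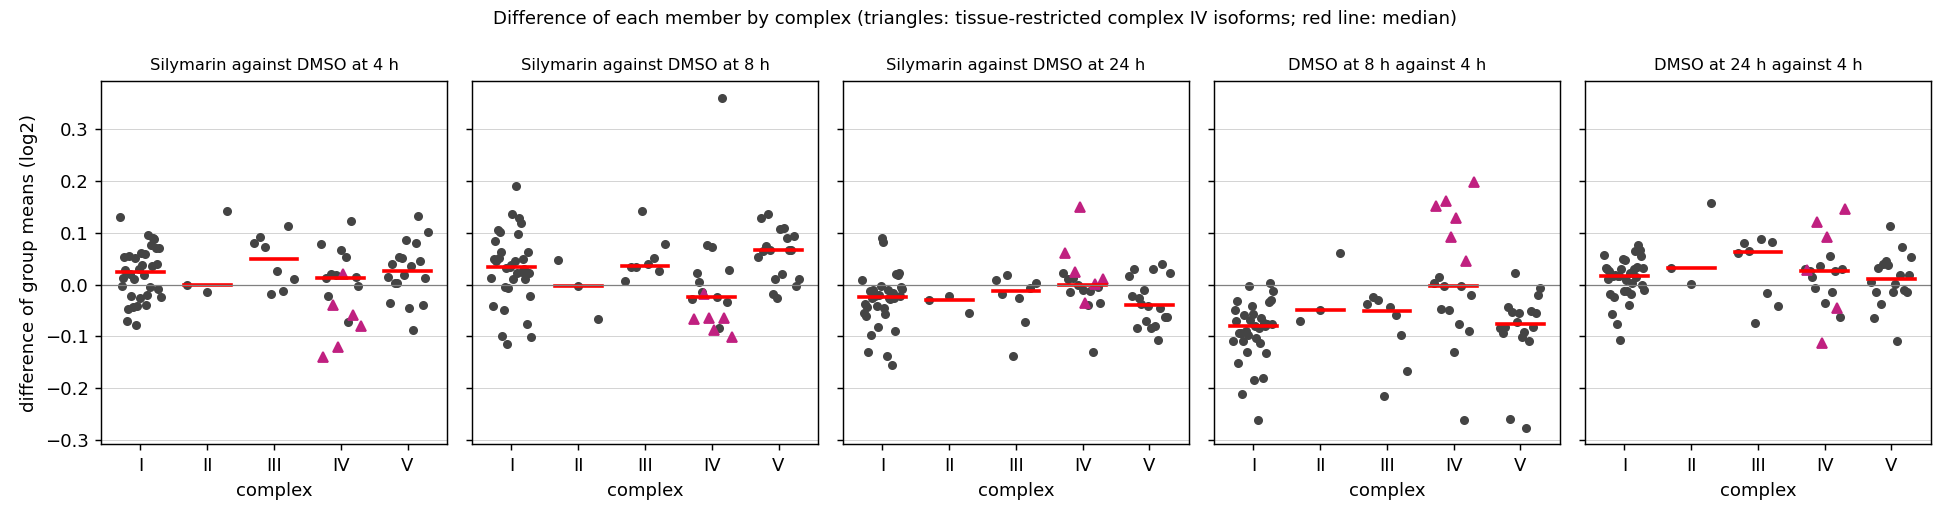
Difference of group means on the log2 scale (y axis) for each member by complex (x axis) in 5 comparisons, with triangles for the 6 tissue-restricted complex IV isoforms and a red line at the median. For DMSO at 8 h against 4 h the points of complexes I, III and V lie below 0 apart from NDUFS8 and ATP5MC2, while the triangles lie between 0.045 and 0.20.

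Among complex I members, NDUFB6 (probe set 8160587, gene at chr9:32553001-32573159 in GRCh38.p14) had values of 8.95, 8.87, 8.80, 8.53 and 8.83 in DMSO at 8 h, against 8.97, 9.17, 9.07 and 9.04 in DMSO at 4 h. Every array at 8 h lay below every array at 4 h, and replicate 4 at 8 h was the lowest of all 24. The difference was -0.26 with an SE of 0.102 and an unadjusted limma p of 0.0176, and it was -0.20 without DMSO replicate 4 at 8 h. NDUFA5 (probe set 8142663, gene at chr7:123536997-123601651), an accessory subunit of the peripheral arm, had 8.79, 8.77, 8.69, 8.67 and 8.63 in DMSO at 8 h, against 8.84, 9.07, 8.91 and 8.86 in DMSO at 4 h. The 8 h arrays were again all lower, with a difference of -0.21, an SE of 0.067 and an unadjusted limma p of 0.0044. Both adjusted p-values were 0.739. NDUFA6, an accessory subunit that binds an acyl carrier protein, also separated, at 11.55, 11.59, 11.55, 11.46 and 11.53 in DMSO at 8 h, against 11.61, 11.69, 11.67 and 11.62 in DMSO at 4 h. NDUFS8, an iron-sulfur subunit, was the member of complex I above 0, at 0.0022 with a 95% interval from -0.13 to 0.14.

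In complex III, UQCRB (probe set 8151909) had 8.20, 8.33, 8.10, 8.10 and 8.17 in DMSO at 8 h, against 8.43, 8.38, 8.33 and 8.44 in DMSO at 4 h. The highest array at 8 h lay just under the lowest at 4 h, equal after rounding, and the difference was -0.22 with an SE of 0.079. UQCRQ (probe set 8107998), whose promoter with its ETS match is printed above, had 10.08, 10.11, 10.08, 10.04 and 9.89 in DMSO at 8 h, against 10.23, 10.20, 10.22 and 10.18 in DMSO at 4 h. All arrays at 8 h were lower, replicate 5 the most, with a difference of -0.17 and an SE of 0.061. The other 6 members, among them the core proteins UQCRC1 and UQCRC2 and the haem-bearing CYC1, lay between -0.10 and -0.02.

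In complex V, ATP5IF1 (probe set 7899424, gene at chr1:28236124-28238100) had 8.92, 8.68, 8.70, 8.54 and 8.62 in DMSO at 8 h, against 8.82, 8.92, 9.10 and 8.98 in DMSO at 4 h. Replicate 1 at 8 h lay inside the 4 h range and the other 4 below it. The difference was -0.26 with an SE of 0.078 and an unadjusted limma p of 0.0028, the smallest of any member in this comparison, with an adjusted p of 0.739. ATP5MGL, dim in these cells, was at -0.28 with an SE of 0.098. The catalytic β subunit ATP5F1B was at -0.09, the central-stalk subunit ATP5F1C at -0.08, and the peripheral-stalk subunits ATP5PB and ATP5PD at -0.08 and -0.06. ATP5MC2 was the member above 0, at 0.02 with a 95% interval from -0.08 to 0.12. It is 1 of 3 genes that encode the same mature c subunit of the ring, and the other two, ATP5MC1 and ATP5MC3, were at -0.05 and -0.07.

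**Figure D5:**
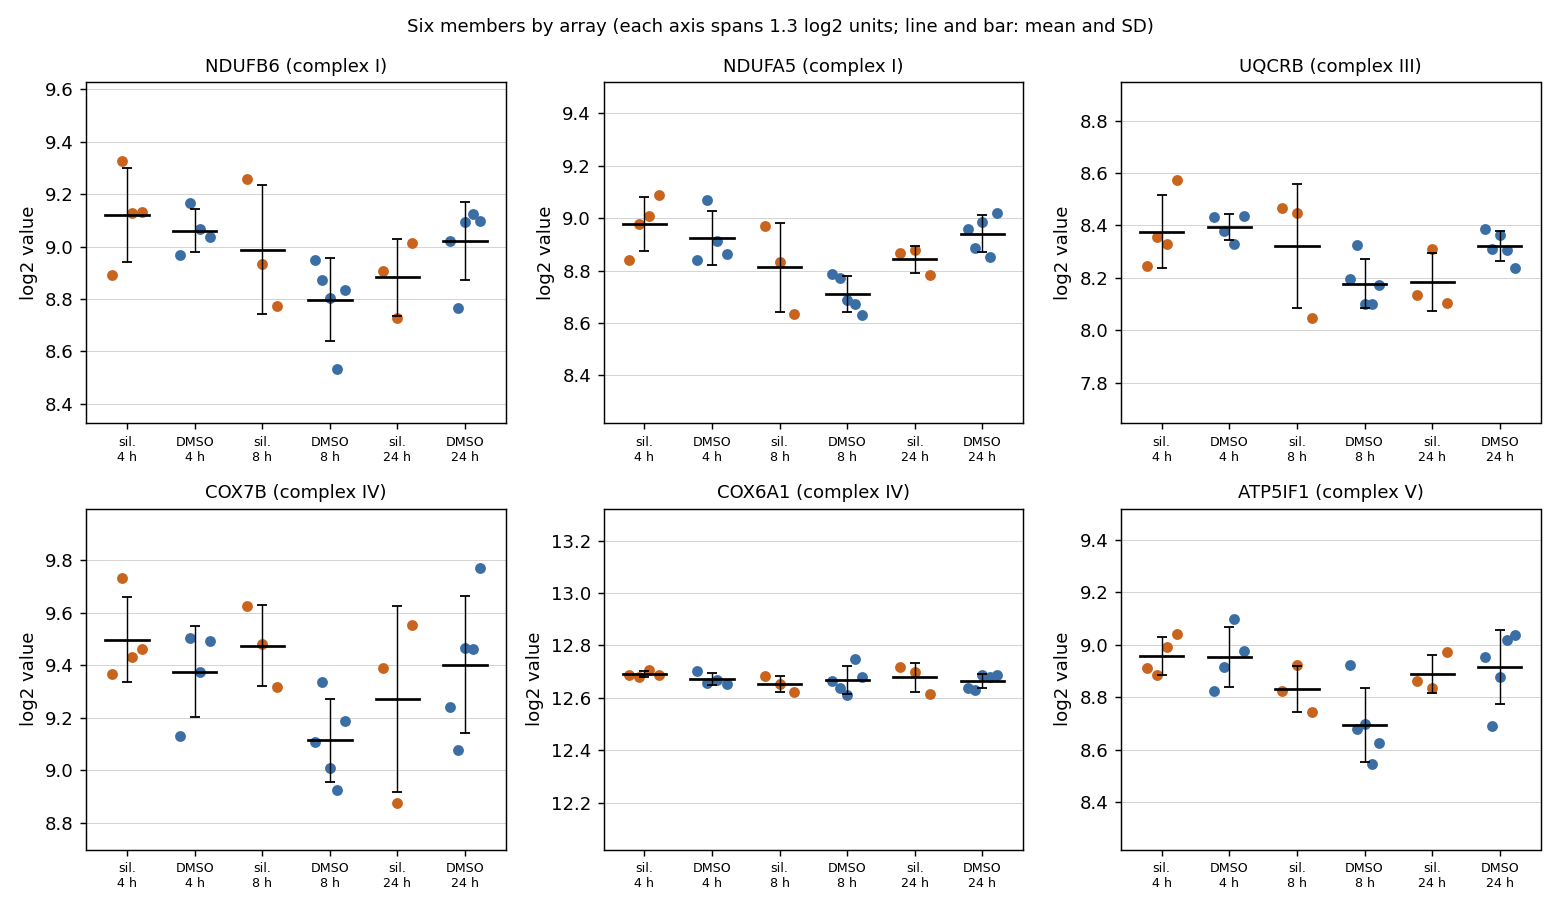
Log2 value in each array (y axis) by treatment and time (x axis) for NDUFB6, NDUFA5, UQCRB, COX7B, COX6A1 and ATP5IF1, each axis spanning the same number of log2 units, with a line and bar for the group's mean and SD. NDUFB6, NDUFA5 and UQCRB have all 5 DMSO points at 8 h below the 4 DMSO points at 4 h, and COX6A1 stays between 12.61 and 12.75.

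Complex IV held pairs of genes for the same subunit, a widely expressed form and a form restricted to heart and muscle, lung or testis. The 6 restricted forms were COX4I2 (subunit 4, lung and low oxygen), COX6A2 and COX7A1 (heart and muscle), and COX6B2, COX7B2 and COX8C (testis). All but COX6A2 were dim, with means between 4.22 and 6.66, and COX6A2 had 7.86. The muscle and testis markers were dim as well, and how much of these probe sets' values is background was not tested. In DMSO at 8 h against 4 h the 6 restricted forms were all above 0 with a median of 0.14, whereas 9 of the 11 other members were below 0 with a median of -0.047. COX6A2 had 7.90, 7.93, 7.98, 7.95 and 7.90 in DMSO at 8 h, against 7.62, 7.75, 7.81 and 7.91 in DMSO at 4 h. The difference was 0.16 with an SE of 0.064 and an unadjusted limma p of 0.0184, and the groups overlapped through the highest 4 h array. Its partner COX6A1 was at -0.0025 with a 95% interval from -0.09 to 0.08. COX8C was at 0.20 with an SE of 0.092, and its partner COX8A at -0.02. COX4I2 was at 0.15 and COX4I1 at 0.0030. COX7A1 was at 0.13, against -0.08 for COX7A2 and -0.0034 for COX7A2L, a relative that joins complexes III and IV into supercomplexes. COX6B2 was at 0.09 and COX6B1 at -0.05, and COX7B2 at 0.05 and COX7B at -0.26. Of all genes in the lowest tertile of mean value, 25.0% were below 0.

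Silymarin against DMSO asks whether the extract moved the subunits at a given time. At 4 h, 51 of 80 members were higher with silymarin and 29 lower, with medians of 0.024 for complex I, -0.0016 for complex II, 0.049 for complex III, 0.013 for complex IV and 0.027 for complex V, and -0.0051 for all genes. In the highest tertile of mean value, which held 60 members, the median was 0.023 for the members and 0.015 for all genes. The median difference exceeded the spread between replicates in complex III, 0.026, and not in the other 4 complexes. The median of complex III was 0.025 without DMSO replicate 4, which is below that spread, and 0.020 without the arrays with DDIT4 of at least 9. With arrays re-centred, complexes I, IV and V exceeded their spread as well, at 0.044, 0.033 and 0.046. The DMSO group itself held a low array, replicate 1, in which 31 of 80 members were above their own mean. ATP5MK, a small subunit that binds synthase dimers together, was the member with an unadjusted limma p under 0.05, as 2.48% of all genes were in this comparison. It had 12.28, 12.37, 12.34 and 12.38 with silymarin, against 12.19, 12.28, 12.19 and 12.18 with DMSO, a difference of 0.13 with an SE of 0.059 and an adjusted p near 1. The groups met at 12.28. Its other probe set gave 0.06 with an SE of 0.057, as described for the probe sets below. NDUFS1, the largest subunit of the NADH-oxidising module, was the member whose groups did not overlap, 1 of 80 where 2.18% of all genes had no overlap in either direction. NDUFS1 had 11.01, 10.94, 10.98 and 11.01 with silymarin, against 10.93, 10.91, 10.90 and 10.90 with DMSO. The gap was small, and the difference of 0.08 had a 95% interval from -0.04 to 0.20. The largest differences in the other complexes were 0.13 for NDUFA1, 0.14 for SDHD, 0.11 for UQCRH and -0.14 for COX4I2, each with an interval that included 0.

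At 8 h, 55 of 80 members were higher with silymarin and 25 lower, with a median of 0.032, against -0.018 for all genes. In the highest tertile of mean value the median was 0.033 for the members and 0.0013 for all genes. All 8 members of complex III and 15 of 18 of complex V were above 0, with medians of 0.037 and 0.066, and complex I had 25 of 34 with 0.033. Complex IV had 11 of 17 below 0 with -0.023, including all 6 restricted forms, and complex II 2 of 3 with -0.0031. Without the restricted forms the complex IV median turned to 0.0040, with 6 of 11 members above 0. Of all genes in the lowest tertile of mean value, 63.1% were below 0. In complexes IV and V the median was larger in size than the replicate spread, 0.023 and 0.056, barely so in complex IV, and in complexes I, II and III it was not. Complex V was under that spread with quantile normalization repeated, at 0.036, and with cyclic loess, at 0.040, as was complex IV with arrays re-centred, at -0.017. The silymarin group rested on 3 arrays that differed among themselves, since the median over all members was 0.016 in replicate 1, -0.0036 in replicate 2 and -0.078 in replicate 3, against -0.030 to -0.084 in the 5 DMSO arrays. Without silymarin replicate 3 the complex medians were 0.085 for complex I and 0.10 for complex V, and without replicate 1 they were 0.0089 and 0.018. DDIT4 was at 10.14, 7.74 and 10.05 in the silymarin arrays. This comparison and DMSO at 8 h against 4 h use the same DMSO arrays at 8 h, so their opposite signs are not independent.

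COX7B (probe set 8168470, gene at chrX:77899468-77907376) had the largest difference at 8 h. It had 9.62, 9.48 and 9.32 with silymarin, against 9.11, 9.34, 9.01, 8.93 and 9.19 with DMSO, and the lowest silymarin array lay just under the highest DMSO array. The difference was 0.36 with an SE of 0.145, an unadjusted limma p of 0.0207 and an adjusted p of 0.991, and 3.93% of all genes had an unadjusted p under 0.05. Leaving out 1 array at a time kept it between 0.29 and 0.44. Its promoter, printed above, held none of the 3 motifs. ATP5F1B (probe set 7964234, gene at chr12:56638175-56645984), the catalytic subunit, had 13.11, 13.10 and 13.08 with silymarin, against 12.98, 13.03, 12.91, 12.94 and 12.99 with DMSO. The silymarin arrays were all higher, by 0.13 with an SE of 0.054 and an adjusted p of 0.991. ATP5PD, of the peripheral stalk, had 11.74, 11.76 and 11.74 with silymarin, against 11.69, 11.63, 11.63, 11.67 and 11.64 with DMSO, also apart, at 0.09 with an SE of 0.055. These were the 2 members of 80 without overlap, where 2.93% of all genes had no overlap in either direction. NDUFB6 was at 0.19, UQCRB at 0.14 and ATP5IF1 at 0.14, and their intervals included 0. The 3 silymarin values of UQCRB, 8.47, 8.45 and 8.05, spanned more than all 5 DMSO values.

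At 24 h, 58 of 80 members were lower with silymarin and 22 higher, with a median of -0.022, against 0.013 for all genes. In the highest tertile of mean value, 47 of 60 members were below 0, with a median of -0.022. Of all genes in that tertile 55.6% were below 0, with a median of -0.0090. Complex I had 28 of 34 below 0 with a median of -0.024, complex II 3 of 3 with -0.030, complex III 5 of 8 with -0.012, complex IV 9 of 17 with -0.0015 and complex V 13 of 18 with -0.039. None of these 5 medians exceeded the spread between replicates, which lay between 0.028 and 0.042. With arrays re-centred, 71 of 80 members were below 0, and the medians of -0.045 for complex I, -0.052 for complex II, -0.034 for complex III and -0.061 for complex V exceeded it. No member had an unadjusted p under 0.05 or groups without overlap, where 3.03% and 1.95% of all genes did in either direction. NDUFC1, a small membrane-arm subunit, had the largest difference, -0.16 with an SE of 0.093. It had 8.92, 9.13 and 9.15 with silymarin, against 9.23, 9.09, 9.15, 9.32 and 9.31 with DMSO, and the groups overlapped. UQCRB was at -0.14 and ATP5MJ, a small membrane subunit of the synthase, at -0.11. COX6B2 was at 0.15, and without silymarin replicate 2 it was at 0.04.

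DMSO at 24 h was also compared with DMSO at 4 h. Of 80 members 53 were higher at 24 h, with a median of 0.018, against 0.0086 for all genes. The medians were 0.017 for complex I, 0.032 for complex II, 0.063 for complex III, 0.027 for complex IV and 0.011 for complex V. Those of complexes III and IV were larger than their replicate spread of 0.028 and 0.023, and those of complexes I, II and V were not. Complex III was at 0.0045 and complex IV at -0.015 without the arrays with DDIT4 of at least 9, and they were at 0.024 and 0.0050 without DMSO replicate 1 at 4 h. No member had an unadjusted limma p under 0.05, where 1.7% of all genes did, and none was free of overlap, where 0.646% of all genes were. SDHD had the largest difference, 0.16 with an SE of 0.079 by the probe set used, and 0.06 with an SE of 0.077 by its other set. ATP5ME, a membrane subunit of the synthase, was at 0.11. COX8C was at 0.15. UQCRC1 was at 0.09 and NDUFB1 at -0.11. NDUFB6, UQCRB and ATP5IF1, which were among the lowest at 8 h, were at -0.04, -0.07 and -0.04.

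The F-test over the 6 groups had an unadjusted p under 0.05 in 5 members, NDUFA1, NDUFA5, COX6A2, ATP5IF1 and ATP5ME, which is 6.25% of 80, near the 7.2% of all genes. The smallest member p was 0.0057, for NDUFA5, with an adjusted p of 0.674. The difference between silymarin and DMSO was itself compared between times. From 4 h to 8 h, 1 member had an unadjusted limma p under 0.05, ATP5F1B, where 2.37% of all genes did. From 8 h to 24 h there were 4, COX7B, NDUFB6, NDUFC1 and UQCRB, with amounts of -0.49, -0.33, -0.28 and -0.28, where 4.08% of all genes had such a p. From 4 h to 24 h there were 2, ATP5MK lower and COX6B2 higher, where 3.02% of all genes did. For ATP5MK this held for the probe set used, at -0.18, and not for its other set, at -0.02 with an unadjusted limma p of 0.782. The smallest adjusted p in these 3 tests was 0.950. For COX7B the SE of that amount was 0.206.

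Complex II was the smallest set and the one most touched by the choice of probe set. SDHA, the flavoprotein that oxidises succinate, had 10.97, 11.06, 11.00, 11.02 and 11.07 in DMSO at 8 h, against 11.13, 11.12, 11.12 and 11.01 in DMSO at 4 h, and the groups overlapped through replicate 4 at 4 h. Its difference was -0.07 with an SE of 0.046, and since SDHA has near-identical pseudogene copies, its probe set may also read those. SDHC and SDHD anchor the enzyme in the membrane, and each had another probe set. Probe set numbers on this array run mostly in genome order, so that for 98.2% of the 19268 single-symbol probe sets with a known chromosome most of the 20 nearest in number lay on the gene's own chromosome. For 4 members the highest-mean probe set broke this order. The set for SDHC, a gene of chromosome 1, was numbered among 20 of 20 neighbours from chromosome 17. The set for NDUFV2, of chromosome 18, lay among 20 of 20 from chromosome 19, and that for ATP5MK, of chromosome 10, among 20 of 20 from chromosome X. The set for SDHD, of chromosome 11, had 0 of 20 neighbours from chromosome 11 and 12 from chromosome 1. Which locus these 4 sets were designed on was not examined.

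The other sets of these 4 genes lay among neighbours of the gene's own chromosome, and for SDHC, SDHD and ATP5MK they gave other values. SDHC had a mean of 10.62 and an SD of 0.137 by that set (7906746), against 12.34 and 0.040 by the set used, so its place among the steadiest members holds for the set used alone. For silymarin against DMSO at 24 h, SDHC was at -0.18 by the other set, with an SE of 0.097, against -0.02 by the set used. By the other set SDHC had 10.69, 10.23 and 10.54 with silymarin, against 10.59, 10.90, 10.71, 10.59 and 10.54 with DMSO, and the groups overlapped. SDHD turned in sign for silymarin at 24 h, to 0.03 by the other set against -0.05, and at 8 h, to 0.0036 against -0.07. ATP5MK at 4 h was at 0.06 with a 95% interval from -0.06 to 0.18 by the other set. ATP5MK also turned in sign, to -0.02 by the other set against 0.07 for silymarin at 8 h. For silymarin at 24 h it was at 0.04 by the other set against -0.05. For NDUFV2 the sets were furthest apart for silymarin at 8 h, at 0.02 by the other set and -0.02 by the set used. With the other sets for all 4 genes, 69 of 80 members were again below 0 for DMSO at 8 h against 4 h, and complex II was below 0 in 3 of 3. The count stayed the same because SDHD moved below 0, from 0.06 to -0.0070, and ATP5MK of complex V above it, from -0.05 to 0.03. For silymarin at 8 h the complex II median was 0.047 with the other sets, against -0.0031 with the sets used. This choice of sets was made after seeing the data.

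Genes that work with the subunits were taken as lists. In DMSO at 8 h against 4 h, 3 of 16 measured complex I assembly factors, 1 of 3 for complex II, 1 of 6 for complex III, 5 of 21 for complex IV and 1 of 3 for complex V were above 0, with medians between -0.087 and -0.064. Of 15 genes for electron carriers and ubiquinone synthesis 1 was above 0, with a median of -0.069, and of 11 genes of the tricarboxylic acid cycle 0, with a median of -0.036. Of 73 mitochondrial ribosomal proteins 14 were above 0, with a median of -0.060 and 7 of 73 at an unadjusted p under 0.05, all lower, where 2.11% of all genes were lower at that level and 6.5% in either direction. Among them MRPL13 was at -0.21 and MRPL22 at -0.25. Glycolysis genes, which lie outside mitochondria, were above 0 in 4 of 15, with a median of -0.051, and cytosolic ribosomal proteins in 25 of 66, with -0.012. Lists outside the respiratory chain thus also had medians below 0, and no list was tested. No gene of these lists had an adjusted p under 0.05 in any of the 5 comparisons.

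The regulators of these genes, a list of 15 that covers factors of respiratory gene expression, had 4 above 0 and a median of -0.049 in DMSO at 8 h against 4 h, and 6 above 0 and -0.0017 in silymarin against DMSO at 8 h. In the carrier list 1 of 15 genes had an unadjusted p under 0.05 for silymarin against DMSO at 24 h, where 3.03% of all genes did. It was COQ8A, a kinase-like protein needed for ubiquinone synthesis. COQ8A averaged 9.65 with silymarin and 9.39 with DMSO, a difference of 0.26 with an SE of 0.073, an unadjusted limma p of 0.0015 and an adjusted p near 1. At 8 h COQ8A was at 0.22 with an SE of 0.073.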

How the data were processed

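Per the labels' protocols, total RNA of 24 samples was run on the Affymetrix platform Human Gene 1.0 ST. The deposited values are log2 expression levels, for which the submitters' processing notes name RMA and oligo. RMA normally removes background, quantile-normalizes the arrays and combines the probes of each set, so shifts common to all genes are largely removed and small differences depend on that scaling. Tool versions and the genome build are not given in the sources used here. Of 28869 probe sets, 19302 had 1 gene symbol, 1729 had several and 7838 were not listed in the platform annotation, and only those with 1 symbol were used. A gene with several was measured by the probe set with the highest mean, which concerned 757 genes and 7 members. All 80 members were matched to RefSeq (GRCh38.p14) by gene number.

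Groups came from the sample titles. limma 3.58.1 in R 4.3.3 fitted 6 group means to 18274 genes without a covariate, with 18 residual and 5.04 prior degrees of freedom, followed by an F-test, 5 differences and 3 differences of differences. Benjamini-Hochberg adjustment ran over all genes, with a threshold of 0.05, and intervals are 95% intervals. Complex medians are descriptions without a test. Figures were drawn with Python 3.11.15 and matplotlib 3.10.9, and the fit was tested on simulated data. The number of arrays limits the precision. Whether same-numbered silymarin and DMSO arrays deviate together was checked within each time, with correlations from -0.14 to 0.43. The numbers were therefore not taken to pair the samples. Between times, as in DMSO at 8 h against 4 h, such pairing was not checked.

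Named members were, in each complex, the largest difference in each of the 5 comparisons, the most and least variable members, paired isoforms and complex II. Others are named where a small count or an unadjusted p under 0.05 singled them out after their values were seen. The members and lists were chosen with earlier results of these data known. The alternatives covered array scaling, dim genes, the choice of probe set, array weights, eBayes settings, the groups in the fit, the replicate block, DDIT4 as a covariate or as a bound, the mean over members, and leaving out each array. Leaving out the tissue-restricted isoforms, taking probe sets numbered among the gene's own chromosome, and leaving out DMSO replicates 1, 4 and 5 at 8 h were chosen after seeing the data.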

Additional observations from a re-analysis of the deposited data

Results flagged for a closer look

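In 156 groups of 4 or 5 arrays checked for a single array far from the rest, 7 were found, and chance gives about 1 in 20. The median deviation of complex II was -0.073 in DMSO replicate 4 at 4 h, against 0.032 to 0.050 in the other 3 arrays of that group. SDHA, in the same array, was at 11.01, against 11.12 to 11.14 in the others. These are the same observation, since SDHA was the middle of the 3 complex II members in all arrays of that group. The checks are therefore not all independent. ATP5MK was at 12.28 in DMSO replicate 2 at 4 h, against 12.18 to 12.19 in the others, and at 12.16 in DMSO replicate 2 at 24 h, against 12.28 to 12.33. NDUFB6 was at 8.76 in DMSO replicate 2 at 24 h, against 9.02 to 9.12. ATP5MC2 was at 10.10 in DMSO replicate 1 at 4 h, against 10.28 to 10.29. COX7A1, a dim heart and muscle isoform, was at 6.07 in DMSO replicate 2 at 4 h, against 6.22 to 6.24.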

How the results depend on the processing

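In 323 of 323 recomputed counts, limma called 0 members. The number of members with an unadjusted p under 0.05 for DMSO at 8 h against 4 h was 7 to 15 as 1 array was left out, and 3 to 16 in the F-test, 0 to 7 for silymarin at 8 h and 0 to 10 for the change of the silymarin difference from 8 h to 24 h. Of 793 recomputed values of the main comparisons, 766 were kept and 27 moved. The 323 counts were among those kept, each at 0 as before. The remaining values were complex medians, judged against the spread between replicates, and all 27 that moved were medians. The cause was not tested. For DMSO at 8 h against 4 h, re-centring gave medians of -0.11 for complex I, -0.086 for complex III, -0.037 for complex IV and -0.11 for complex V. Repeated quantile normalization gave -0.049 for complex I, -0.019 for complex III and 0.026 for complex IV, and cyclic loess -0.051, -0.016 and 0.030. Complex IV was at -0.034 without dim genes, -0.029 without arrays with DDIT4 of at least 9, and -0.047 without the tissue-restricted isoforms, which also moved it to 0.0040 for silymarin at 8 h. Complex III was at -0.098 without arrays with DDIT4 of at least 9, -0.084 by the mean over members and -0.083 without DMSO replicates 1, 4 and 5 at 8 h. Without arrays with DDIT4 of at least 9, which left 3, 2, 1, 2, 2 and 4 arrays in silymarin 4 h, DMSO 4 h, silymarin 8 h, DMSO 8 h, silymarin 24 h and DMSO 24 h, silymarin at 4 h gave 0.020 for complex III and -0.014 for complex IV, and DMSO at 24 h against 4 h gave -0.022 for complex I, 0.0045 for complex III and -0.015 for complex IV. The mean over members gave 0.031 for complex III in DMSO at 24 h against 4 h. With probe sets numbered among the gene's own chromosome, complex II was at 0.047 for silymarin at 8 h.

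Leaving out 1 array at a time, complex IV ranged from -0.038 (without DMSO replicate 1) to 0.016 for silymarin at 4 h. Complex III ranged from -0.078 (without DMSO replicate 4 at 4 h) to -0.043 for DMSO at 8 h against 4 h, and from 0.024 (without DMSO replicate 1 at 4 h) to 0.084 for DMSO at 24 h against 4 h. Named members were recomputed only in the comparisons where their difference was the largest of their complex. Of 432 such values, 5 changed sign, all of SDHD. ATP5MK, whose sign turned with its other probe set as given above, was recomputed in this way for silymarin at 4 h alone. For silymarin at 24 h SDHD was at 0.029 without arrays with DDIT4 of at least 9 and at 0.028 with the own-chromosome probe set, and it ranged from -0.13 to 0.031 (without silymarin replicate 1) as 1 array was left out. For silymarin at 8 h it was at 0.0036 with the own-chromosome probe set and ranged from -0.12 to 0.030 (without silymarin replicate 3).

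With the replicate number as a block, 0 members were called, and 12 members had an unadjusted p under 0.05 for DMSO at 8 h against 4 h, 3 for silymarin at 8 h and 5 in the F-test. The complex I median for DMSO at 8 h against 4 h was -0.074 under the block. Same-numbered silymarin and DMSO arrays of the same time had correlations from -0.14 to 0.43, and most silymarin arrays were closest to another number. In 6 members the mean was under 6.81, and how far these probe sets lie above background was not tested.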
